A study of Homo sapiens with 6 samples.

Results

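The 28S ribosomal RNA is the long RNA of the large ribosomal subunit. It was followed here through the peaks found with tagged HSP70 chaperones in human cells. Its peaks were taken on 4 gene copies of chromosome 21, namely RNA28SN1, RNA28SN2, RNA28SN3 and the annotated pseudogene LOC110467529. Over the 4 peak lists used, 624 of 9974 peaks lay on these copies. The study used FLASH-seq, in which RNA is fixed to a protein with ultraviolet light and then recovered with it. The cells were HEK293 Flp-In T-Rex, an established embryonic kidney line with a tetracycline-controlled transgene. Each of 3 bait proteins, GFP, HSPA1A and HSPA8, carried a 3xFLAG-HBH tag and was represented by 2 biological replicates.

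All cells received 1 µg/ml tetracycline to switch on the bait, and UV-C light before purification on nickel and streptavidin beads. The tagged protein was thus made from a transgene. HSPA1A is the stress-inducible and HSPA8 the constitutive cytosolic HSP70 chaperone. GFP peaks were not used here, and the values are therefore given with no control bait. Bound and merely abundant RNA cannot be told apart. Read depth is unknown, because each list gives only positions, strands and a whole-number score whose meaning is not stated. Scores were therefore read only within a list. The number 1 and number 2 lists of both baits differed throughout, in peak number, peak width and score, and each comparison is also given within a number. For HSPA1A and GFP, per the labels, replicate 2 served the submitters only to find peaks common to both replicates. The lists held 2744 and 2059 peaks for HSPA1A and 3131 and 2040 for HSPA8, of which 353 and 617 in HSPA8 lay on scaffolds.

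As background, 28S rRNA is cut from a 45S precursor made by RNA polymerase I, together with 18S and 5.8S rRNA. The small 5S rRNA of the same subunit is made by RNA polymerase III. The 28S RNA forms the peptidyl transferase centre, where peptide bonds are made, and in animals it carries long GC-rich expansion segments at the ribosome surface. HSP70 chaperones are known to meet nascent chains near the ribosome. Positions below count from 1 at the start of RNA28SN1 and were not tied to helices or expansion segments, since no 28S sequence was used here.

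On GRCh38, RNA28SN1 (gene identifier 106632264) lies on chromosome 21 from 8441146 to 8446211 and is 5066 nt long. RNA28SN2 lies from 8213888 to 8218941 (5054 nt) and RNA28SN3 from 8396926 to 8401980 (5055 nt). LOC110467529 lies from 8258134 to 8260930 and holds 2797 nt. The first 3 are annotated as rRNA genes. They belong to a family of near-identical repeats, so reads and peaks are uncertain between copies, and the copies are no replicates of each other.

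Peaks tiled nearly the whole 28S RNA with both baits. RNA28SN1 carried 36 peaks in HSPA1A replicate 1 and 59 in HSPA1A replicate 2. For HSPA8 the numbers were 29 and 53. Each of these peaks lay on the plus strand, and 0 peaks lay on the minus strand of any of the 4 copies. In every list many peaks abutted: merging peaks with no base between them left 21, 35, 20 and 31 blocks in the same order of lists.

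The peaks covered 90.3% of the positions of RNA28SN1 in HSPA1A replicate 1 and 88.3% in HSPA1A replicate 2. In HSPA8 they covered 90.0% in replicate 1 and 87.6% in replicate 2. The 4 lists thus lay within a few percentage points of each other, and the values of the baits overlapped by whole peaks. The authors' files also mark an inner stretch of each peak, and these inner stretches covered 66.6%, 70.0%, 66.4% and 64.0% of the RNA in the same order. By inner stretches the baits did not overlap on RNA28SN1. HSPA1A was higher by 3.13 percentage points on average (exact permutation, p = 0.33, the smallest possible). The lists numbered 1 were nearly equal, and those numbered 2 carried most of the difference. The baits also did not overlap on RNA28SN2 (64.2% and 64.6% against 63.4% and 62.9%). They overlapped on RNA28SN3 (64.55% and 64.53% against 65.18% and 62.31%) and on LOC110467529 (64.2% and 64.9% against 68.1% and 58.8%).

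**Figure D1:**
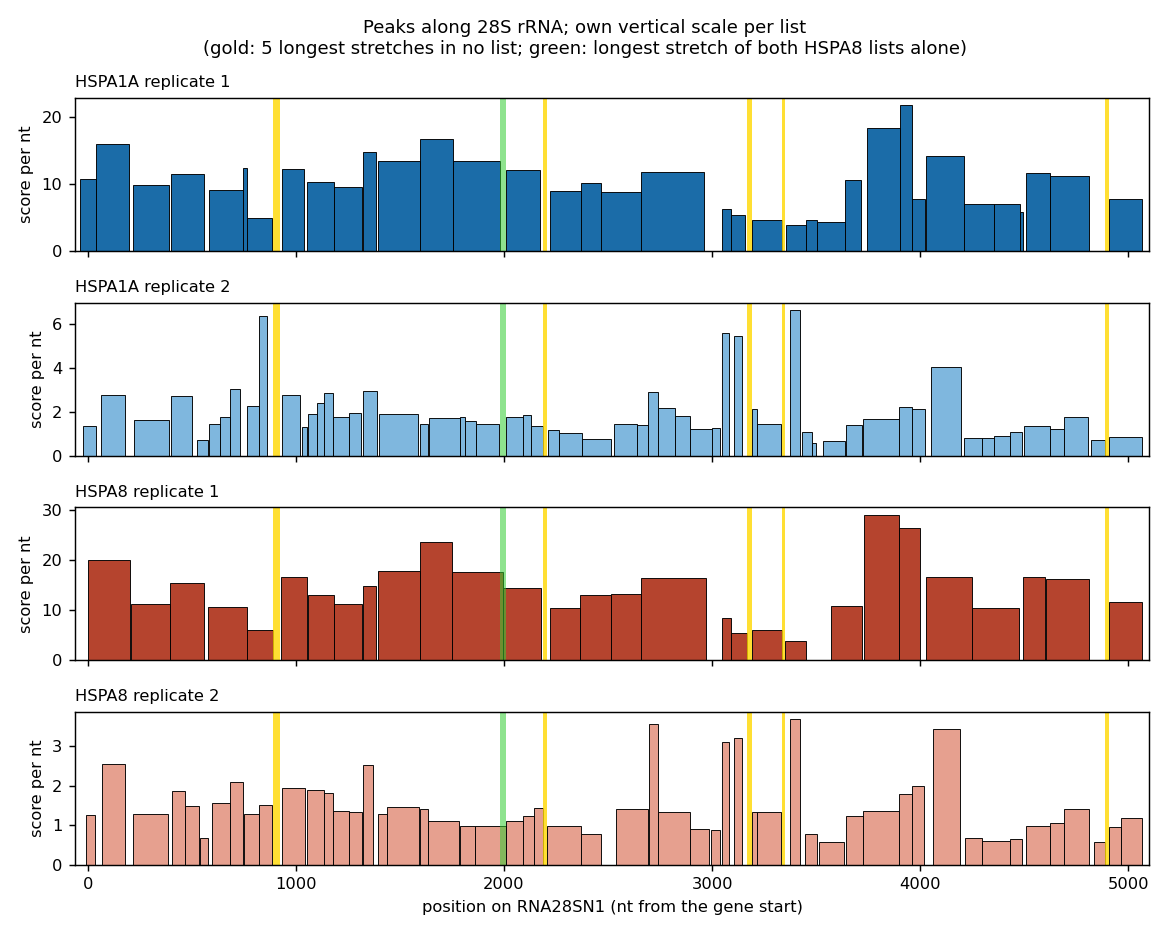
Each bar is a peak on RNA28SN1, drawn from its first to its last position (horizontal axis, nt from the gene start) with its score divided by its width (vertical axis, score per nt, own scale in each list). Peaks tile the RNA in all 4 lists, with tall narrow peaks between positions 3050 and 3423 in both lists numbered 2 and the tallest peaks between positions 3732 and 3998 in both lists numbered 1; gold marks the 5 longest stretches in no list and green positions 1979 to 2008, covered in both HSPA8 lists alone.

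Setting the baits side by side asks whether the lists of the inducible and the constitutive chaperone differ on 28S. By bait the lists also differ in the sequences they hold, with 0 scaffold peaks in each HSPA1A list and 353 and 617 in the HSPA8 lists. The part of processing in any difference between the baits was not tested. The mean number of peaks on RNA28SN1 was 47.5 ± 16.3 for HSPA1A and 41.0 ± 17.0 for HSPA8 (SD, n = 2 each). The difference of 6.5 peaks was smaller than either SD (two-sided exact permutation, p = 0.667). Within a replicate number, HSPA1A had 7 more peaks among the lists numbered 1 and 6 more among those numbered 2. The size depended on how peaks were split: the difference was 2.5 with abutting peaks merged and -0.5 with peaks within 50 bp merged (exact permutation, p = 1 for the latter). It was -5 without HSPA1A replicate 2 and -5.5 without HSPA8 replicate 1, and 18 and 18.5 without the other lists.

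The mean covered share of RNA28SN1 was 89.3% ± 1.42 for HSPA1A and 88.8% ± 1.67 for HSPA8 (SD, n = 2 each). The difference of 0.553 percentage points was also smaller than either SD (two-sided exact permutation, p = 0.667). It was 0.375 among the lists numbered 1 and 0.730 among those numbered 2. The sign depended on the copy, at -1.30 for RNA28SN3 and -2.38 for LOC110467529 (exact permutation, p = 0.667 for each). The difference was -0.454 without HSPA1A replicate 1 and -0.632 without HSPA8 replicate 2. The smallest p that 2 lists a bait allow is 0.33, so the values and their spread carry these comparisons. The labels call the replicates biological.

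The other copies gave like values. RNA28SN2 carried 35 and 55 peaks with HSPA1A and 29 and 50 with HSPA8. RNA28SN3 carried 38 and 55 peaks with HSPA1A and 31 and 50 with HSPA8. LOC110467529, the short copy, carried 21 and 32 in HSPA1A and 20 and 31 in HSPA8. On this copy the last peak of each list ran 22 to 31 nt past the annotated end. Covered shares over these 3 copies ranged from 83.4%, on LOC110467529 in HSPA1A replicate 2, to 90.8%, on the same copy in HSPA8 replicate 1. The order of the copies by covered share differed between lists.

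Peaks of RNA28SN1 were looked for at the same place on the other copies, within 15 nt at both ends after a shift. The shift was chosen for each list and copy to match the most peaks, so the matched shares are best cases. It differed between lists for the same copy, from -10 to -2 nt on RNA28SN2. On RNA28SN2, 77.8% and 72.9% of the HSPA1A peaks and 79.3% and 84.9% of the HSPA8 peaks had such a partner. The median score of the partner over that of the RNA28SN1 peak was 0.977 and 0.990 for HSPA1A and 0.984 and 0.991 for HSPA8. For RNA28SN3 and LOC110467529 the median ratio lay between 0.984 and 1.00 in all 4 lists. Single ratios ran from 0.426 to 2.08, both on RNA28SN3, where 34 of 41 matched peaks of HSPA1A replicate 2 and 38 of 44 of HSPA8 replicate 2 lay within 10%. The matched share was 69.0% to 83.0% on RNA28SN3 and 62.5% to 79.3% on LOC110467529. For LOC110467529 only RNA28SN1 peaks ending within the length of this shorter copy were used, 18 and 33 with HSPA1A and 16 and 29 with HSPA8. Matched peaks were thus alike in score at the median, with exceptions. How the authors treated reads that match several places is not given in the sources used here.

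**Figure D2:**
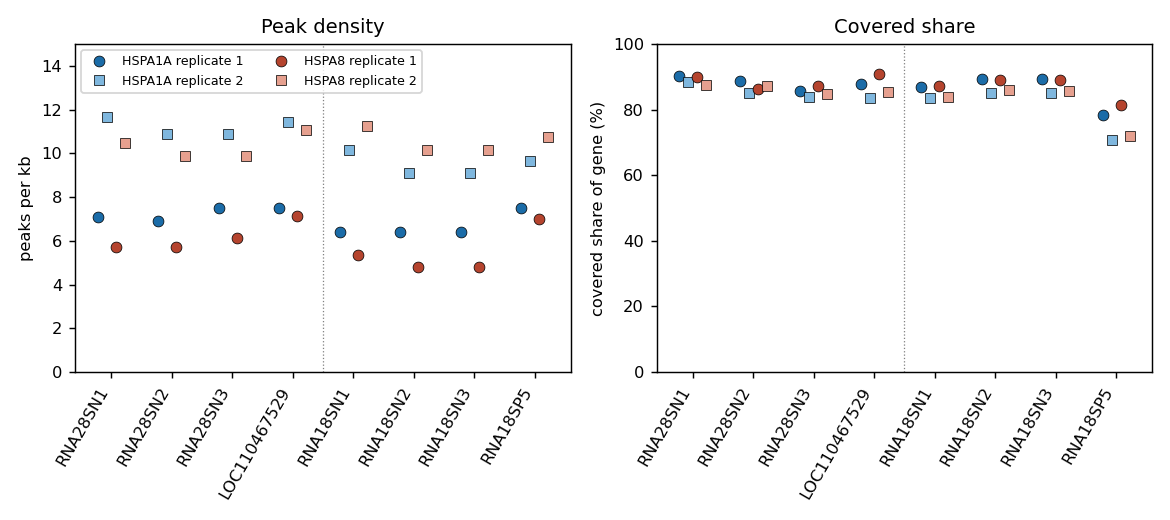
Points give peaks per kb (left) and the share of the gene covered in percent (right) for each list on the 4 copies of 28S and the 4 neighbouring copies of 18S, set apart by the dotted line. Lists numbered 2 (squares) sit above lists numbered 1 (circles) in peak density on every copy, while the covered share lies between 70.7% and 90.8% throughout.

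The peaks of 28S were wide and high in score for their lists. Their median width on RNA28SN1 was 135 nt in HSPA1A replicate 1 and 60 nt in HSPA1A replicate 2, against 48 and 44 nt over all peaks of these lists. In HSPA8 it was 147 and 70 nt, against 57 and 51 nt. Of the RNA28SN1 peaks, 36 of 36, 58 of 59, 29 of 29 and 53 of 53 scored above the median of their list, in the order used above. Over all peaks this held for 47.9%, 49.6%, 48.9% and 49.6%. The 18S gene RNA18SN1 showed the same traits, with median widths of 139, 64, 187.5 and 78 nt. Of its peaks, 12 of 12, 19 of 19, 10 of 10 and 21 of 21 scored above the median. Width and high score were thus not particular to 28S.

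Scores on RNA28SN1 ran from 93 to 3557, with a median of 1282.5, in HSPA1A replicate 1. They ran from 11 to 581, with a median of 123, in HSPA1A replicate 2. In HSPA8 they ran from 388 to 5195 (median 2009) in replicate 1 and from 27 to 444 (median 99) in replicate 2. Of the 100 highest-scoring peaks of HSPA1A replicate 1, 48 lay on the 4 copies of 28S. For HSPA1A replicate 2 this held for 17 of 102, ties included, and for HSPA8 for 26 of 100 in replicate 1 and 18 of 100 in replicate 2. Like peaks count once per copy here, so the 48 are 13, 13, 13 and 9 on the 4 copies. The 4 copies of 18S held 24, 6, 20 and 6 of the highest-scoring peaks in the order used above. These were out of 50, 71, 41 and 79 peaks on 18S, against 130, 201, 109 and 184 on 28S. Such high places were thus not particular to 28S. The HSPA8 lists also hold high-scoring peaks on scaffold copies of 28S, which compete for these places.

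As a share of the peaks on the 25 chromosomes found in all 4 lists, the 4 copies of 28S took 4.74% (95% Wilson interval 4.004 to 5.60) in HSPA1A replicate 1. They took 9.76% (8.55 to 11.1) in HSPA1A replicate 2. In HSPA8 they took 3.92% (3.26 to 4.71) in replicate 1 and 12.9% (11.3 to 14.8) in replicate 2. The intervals reflect counting error only, and peaks side by side on an RNA are not independent. The mean was 7.25% ± 3.55 for HSPA1A and 8.43% ± 6.37 for HSPA8 (SD, n = 2 each). The difference of -1.18 percentage points was smaller than either SD (two-sided exact permutation, p = 1). It was 0.814 among the lists numbered 1 and -3.17 among those numbered 2 and thus had opposite signs. Without HSPA1A replicate 1 it was 1.33, and without HSPA8 replicate 2 it was 3.33. With scaffold peaks in the denominator alone it was 0.999, and with equal numbers of top-scoring peaks 1.30 (exact permutation, p = 0.667 for each). With only the peaks at or above the median score of their list it was -4.29. The scaffold setting lowers the HSPA8 shares only, since the HSPA1A lists hold 0 scaffold peaks. The scaffold copies of 28S stayed out of its numerator, so its change of sign is not read as a result.

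Peaks of 28S were found again in the other replicate of the same bait nearly without exception. At least 1 bp on the same strand was shared by 35 of 36 RNA28SN1 peaks of HSPA1A replicate 1, against 47.6% of all its peaks. The count was 57 of 59 for HSPA1A replicate 2, against 72.6% of all its peaks. It was 29 of 29 for HSPA8 replicate 1, against 39.3%, and 51 of 53 for HSPA8 replicate 2, against 84.7%. The RNA was covered at 87.6% to 90.3% in each list, which leaves few places for a peak without a partner, so the counts are not read as a sign of reproducibility. With a reciprocal overlap of 50%, the shares were 75.0% and 45.8% for the HSPA1A lists and 79.3% and 43.4% for the HSPA8 lists. Over all peaks of the 4 lists this held for 41.5%, 55.4%, 31.6% and 48.4%. By this stricter measure, 28S stood above its list in the lists numbered 1 and below it in those numbered 2. Within a bait the matched count was the same from either list, 27 for HSPA1A and 23 for HSPA8. Over all peaks it was 1140 and 988. The lists numbered 1 held fewer peaks on RNA28SN1 and more over the whole list, so each share depends on which list is its base. The order is therefore not read as a sign of reproducibility.

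Peak starts were compared between lists. A start within 5 nt in the other replicate was found for 21 of 36 RNA28SN1 peaks of HSPA1A replicate 1 (58.3%, against 34% of all its peaks). It was found for 21 of 59 of HSPA1A replicate 2 (35.6%, against 45.3%). In HSPA8 it was found for 11 of 29 in replicate 1 (37.9%, against 23.6%) and for 11 of 53 in replicate 2 (20.8%, against 36.2%). Within a bait the matched count is again the same from either list, so its shares differ only by the number of peaks. Of the 36 peaks of HSPA1A replicate 1, 12 starts and 6 ends recurred within 5 nt in all 4 lists. The like share over all peaks was not computed for 4 lists, so these counts are given as values only. The shared starts lay at positions 401, 932, 1055, 1182, 1322, 1397, 1598, 2368, 3047, 3193, 3901 and 4906. At position 3900 a peak ended and at 3901 the next began, in each list within 5 nt.

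The lists were alike at the 3′ end and differed at the 5′ end. The last peak on RNA28SN1 ended 3 nt before the annotated 3′ end in HSPA1A replicate 1 and 1 nt before it in the other 3 lists. At the 5′ end, the first peak began upstream of the annotated start, by 37 and 21 nt in the HSPA1A lists and by 1 and 11 nt in the HSPA8 lists. It ended at position 38 in both HSPA1A lists, and at 204 and 34 in the HSPA8 lists. On RNA28SN2 the first peak of HSPA8 replicate 1 began 40 nt upstream, so the reach of this peak differed between copies. The 361 nt of precursor beyond the 3′ end, up to the end of RNA45SN1 at 8446572, carried 4, 0, 2 and 4 peaks in the order used above. Where there were any, the highest scored 31 with HSPA1A (replicate 1), and 63 and 12 with HSPA8. The last peak of mature 28S, from position 4906 on, scored 1232 in HSPA1A replicate 1 and 1855 in HSPA8 replicate 1, and the last peak of HSPA8 replicate 2 scored 120. The mature part thus had scores far above those of the adjoining spacer within each of these lists.

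Of the 5066 positions, 3926 (77.5%) were covered in all 4 lists and 141 (2.78%) in none. The positions in all 4 lists formed 41 stretches. The 5 longest lay at positions 2697 to 2959 (263 nt), 4251 to 4475 (225 nt), 3742 to 3958 (217 nt), 4604 to 4805 (202 nt) and 1789 to 1976 (188 nt). On chromosome 21 the longest runs from 8443842 to 8444104. It was covered by 1 peak each in HSPA1A replicate 1 and HSPA8 replicate 1, by 4 peaks in HSPA1A replicate 2 and by 3 in HSPA8 replicate 2.

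The positions covered in no list formed 14 stretches. The longest ran from 890 to 926 (37 nt, 8442035 to 8442071), followed by 3170 to 3190, 2187 to 2206, 4889 to 4905 and 3337 to 3349. A like gap was found on other copies, at positions 887 to 917 of RNA28SN2 and 867 to 903 of LOC110467529. It was the longest gap on RNA28SN1 alone. The longest lay at positions 2139 to 2197 on RNA28SN2, 2135 to 2192 on RNA28SN3 and 1113 to 1155 on LOC110467529. The first and second of these overlap the RNA28SN1 gap at 2187 to 2206 by position. Uncovered positions made up 4.04%, 5.66% and 6.4% of RNA28SN2, RNA28SN3 and LOC110467529.

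A stretch of 30 nt was covered with HSPA8 alone on every copy. Positions 1979 to 2008 of RNA28SN1 (chromosome 21, 8443124 to 8443153) were covered in both HSPA8 lists and in neither HSPA1A list. In HSPA1A replicate 1 a peak ended at position 1978 and the next began at 2009. In HSPA1A replicate 2 these borders were 1976 and 2010. In HSPA8 replicate 1 a peak from 1752 to 1994 with a score of 4304 met a peak from 1995 to 2179 with a score of 2669. In HSPA8 replicate 2 a peak from 1859 to 2007 with a score of 146 met a peak from 2008 to 2093 with a score of 96. The HSPA1A lists therefore left the stretch open where the HSPA8 lists ran through it.

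The same 30 nt recurred at 8215861 to 8215890 on RNA28SN2, 8398895 to 8398924 on RNA28SN3 and 8260090 to 8260119 on LOC110467529. These copies can hold the same reads and add no independent evidence. No position of the stretch fell into the inner part of a peak in any list, so the difference concerns the margins of peaks. The reverse pattern, both HSPA1A lists and neither HSPA8 list, covered 9 positions of RNA28SN1 in 3 stretches of at most 5 nt. A difference between 2 lists a bait at a single stretch was not tested, and the stretch was picked by its pattern.

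**Figure D3:**
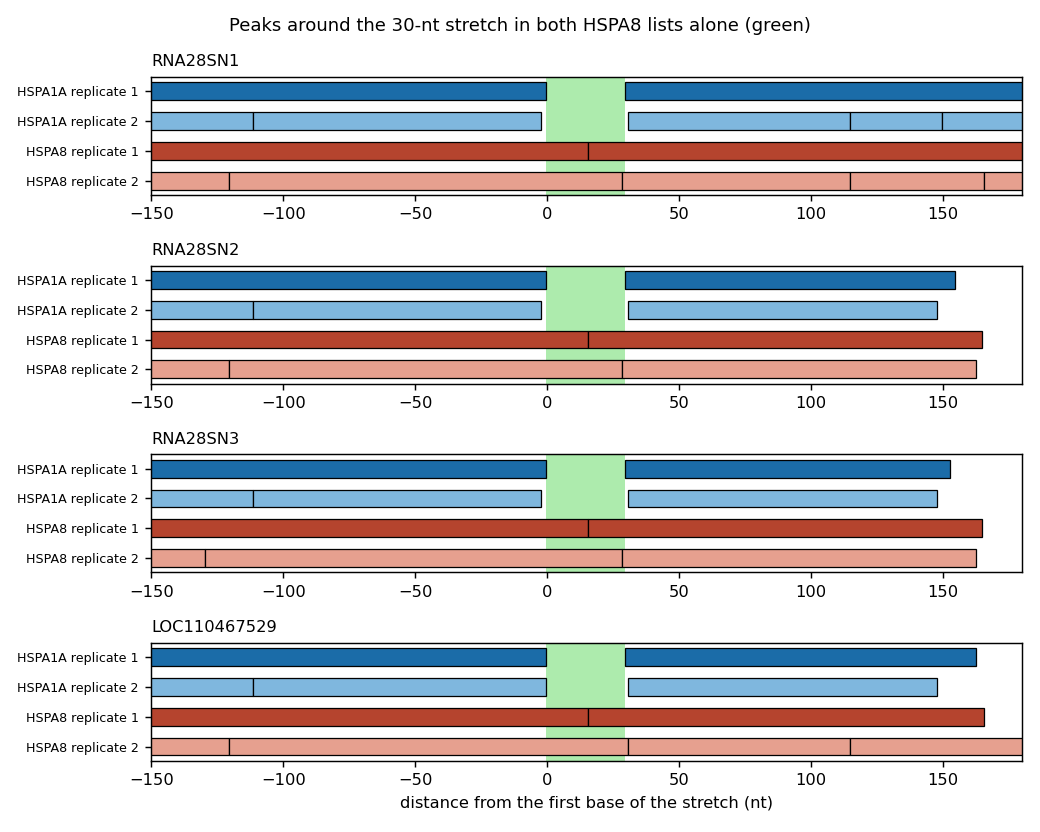
Bars are peaks of each list on the 4 copies of 28S, placed by distance in nt from the first base of the 30-nt stretch (green) that both HSPA8 lists cover and neither HSPA1A list covers. On all 4 copies the HSPA1A bars stop at its borders and the HSPA8 bars run through; the copies can hold the same reads.

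Stretches that followed the replicate number were more extensive than those that followed the bait. Both lists numbered 1 and neither list numbered 2 covered 184 positions in 23 stretches, of at most 25 nt. Both lists numbered 2 and neither list numbered 1 covered 145 positions in 8 stretches. The longest of these ran from 4834 to 4886 (53 nt) and was not found on RNA28SN2 or RNA28SN3: HSPA1A replicate 1 had a peak there on RNA28SN2, at 4820 to 4880, and on RNA28SN3, at 4836 to 4893. The next, 3000 to 3035, returned on RNA28SN2 at 2989 to 3024 and on RNA28SN3 at 2985 to 3020. By bait, the like sums were 31 positions for HSPA8 and 9 for HSPA1A. On LOC110467529 the sums were 72 and 29 positions for the lists numbered 1 and 2, and 40 and 1 for HSPA8 and HSPA1A.

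The likeness of the lists was measured by the Jaccard index, the positions covered in both lists over those covered in either. It was 0.878 for the HSPA1A pair and 0.845 for the HSPA8 pair. It was 0.930 for the pair of lists numbered 1 and 0.907 for the pair numbered 2. The crossed pairs gave 0.875 and 0.854. The mean over pairs of the same bait minus that over pairs of different baits was -0.0297. It was -0.0208 on RNA28SN2, -0.0248 on RNA28SN3 and only -0.00631 on LOC110467529. On RNA28SN1, lists of the same number were thus more alike in the positions they cover than lists of the same bait.

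The score per nt along the RNA gave the same order. Over the 5066 positions, Spearman's rho was 0.836 for the lists numbered 1 and 0.763 for those numbered 2. It was 0.471 for the HSPA1A pair, 0.330 for the HSPA8 pair, and 0.405 and 0.356 for the crossed pairs. Pearson's r was 0.823 and 0.758 for the same numbers and 0.255 and 0.248 for the same baits. Positions within a peak share their value, so these are descriptions. The labels name no day or batch for a number, and the part of library preparation or depth in this pattern was not tested.

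**Figure D4:**
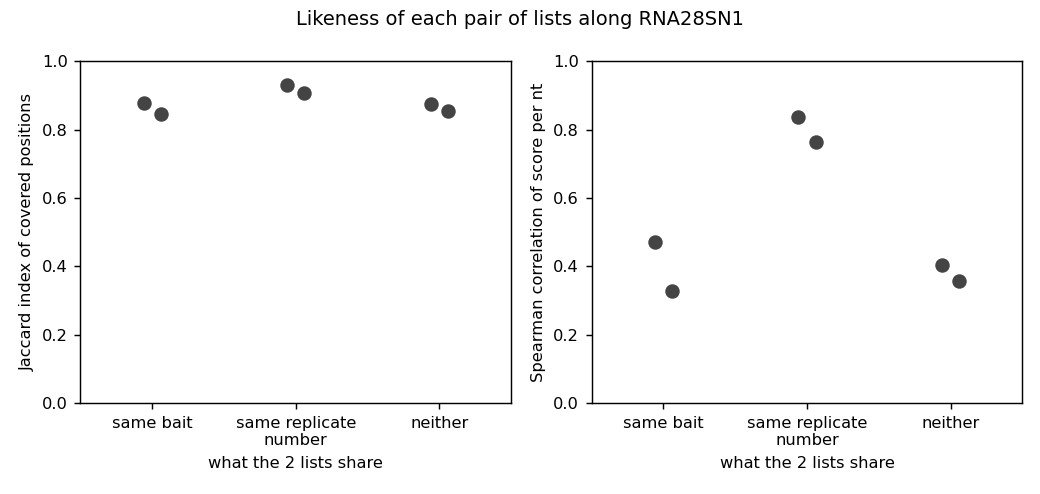
Each point is a pair of lists compared along RNA28SN1 by the Jaccard index of covered positions (left) and by Spearman's rho of the score per nt over 5066 positions (right), grouped by what the pair shares. Pairs of the same replicate number lie highest in both panels, at 0.907 and 0.930 and at 0.763 and 0.836.

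The highest-scoring peaks show where the numbers differ. In HSPA1A replicate 1 they lay at positions 2659 to 2959 with a score of 3557, 1754 to 1978 with 3016 and 3742 to 3900 with 2928. In HSPA8 replicate 1 they lay at nearly the same places, at 2658 to 2971 with 5195, 3732 to 3899 with 4897 and 1752 to 1994 with 4304. In HSPA1A replicate 2 they lay at 4053 to 4196 with 581, 1398 to 1584 with 355 and 62 to 180 with 328. In HSPA8 replicate 2 they lay at 4060 to 4188 with 444, 69 to 180 with 286 and 3727 to 3899 with 236. Each number thus had its own leading peak, shared by both baits. Among all peaks of its list the leading RNA28SN1 peak took rank 5 and 50 with HSPA1A and rank 10 and 54 with HSPA8, replicate 1 first.

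The leading peak of the lists numbered 2, near positions 4053 to 4196, took place 6 by score on RNA28SN1 in HSPA1A replicate 1 and place 5 in HSPA8 replicate 1. The leading place of the lists numbered 1, near 2659 to 2959, was split among 5 peaks in HSPA1A replicate 2 and 4 in HSPA8 replicate 2. Places by score compare peaks of different widths. The peak near 3742 to 3900 was in place 3, 5, 2 and 3 in the order used above.

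By score per nt, the lists numbered 1 peaked just around the shared border at 3900. The highest value was 21.8 per nt at positions 3901 to 3958 in HSPA1A replicate 1 and 29.1 per nt at 3732 to 3899 in HSPA8 replicate 1. The lists numbered 2 instead peaked on narrow intervals, at 6.63 per nt at positions 3376 to 3423 in HSPA1A replicate 2 and 3.68 per nt at 3374 to 3423 in HSPA8 replicate 2. The next by this measure differed between the baits. In HSPA1A replicate 2 it lay at 823 to 862 with 6.38 per nt, where HSPA8 replicate 2 had 1.52 per nt at 824 to 885. In HSPA8 replicate 2 it lay at 2697 to 2739 with 3.56 per nt, where HSPA1A replicate 2 had 2.91 per nt at 2693 to 2738. Other narrow peaks of the lists numbered 2, chosen after their values were seen because both baits have them, lay at 3050 to 3079 and 3106 to 3143 in HSPA1A, with 5.57 and 5.45 per nt. In HSPA8 they lay at 3050 to 3080 and 3107 to 3144, with 3.10 and 3.21 per nt. In the lists numbered 1 the peaks there were among the lower ones, at 6.31 and 5.40 per nt for HSPA1A and 8.49 and 5.53 for HSPA8.

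Divided into 10 equal windows from the 5′ to the 3′ end, the RNA was least covered in window 7, positions 3041 to 3546. The covered share there was 88.5% and 67.0% with HSPA1A and 73.5% and 69.6% with HSPA8. HSPA1A replicate 1 was the exception, with its lowest share, 80.9%, in window 10. Over all windows and lists the share ran from 67.0% to 100%, the latter in window 4 of HSPA8 replicate 1.

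The baits did not overlap in covered share in 3 of 10 windows (30%). With exchanged labels, 2 against 2 lists fail to overlap at a rate of 0.33, so 30% is near that share. The windows are therefore given as values only. In window 4, positions 1521 to 2026, HSPA1A had 94.1% and 89.9% and HSPA8 had 100% and 98.2%, a difference of -7.11 percentage points. This window holds the 30-nt stretch described above. In window 8, positions 3547 to 4053, HSPA1A had 93.9% and 92.3% and HSPA8 had 87.2% and 91.3%, a difference of 3.85. In window 9, positions 4054 to 4559, HSPA1A had 97.0% and 96.0% and HSPA8 had 95.8% and 90.3%, a difference of 3.46. The exact permutation p was 0.33 in these 3 windows, the smallest possible, and the adjusted p was 1 in all 10. On RNA28SN2 and on LOC110467529 the baits did not overlap in 1 window, and on RNA28SN3 in 3. The lists numbered 1 and 2 did not overlap in 5 of 10 windows.

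The share of a list's 28S score per window differed by number as well. Window 7 held 4.34% in HSPA1A replicate 1 and 3.14% in HSPA8 replicate 1, but 12.0% in HSPA1A replicate 2 and 10.4% in HSPA8 replicate 2. Window 4 held 14.1% and 14.7% in the lists numbered 1 and 9.09% and 8.89% in those numbered 2. Window 1, at the 5′ end, held between 11.3% and 11.9% in all 4 lists. By this measure the 4 lists were closest at the 5′ end, although their covered shares there ran from 81.5% to 99.0%.

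**Figure D5:**
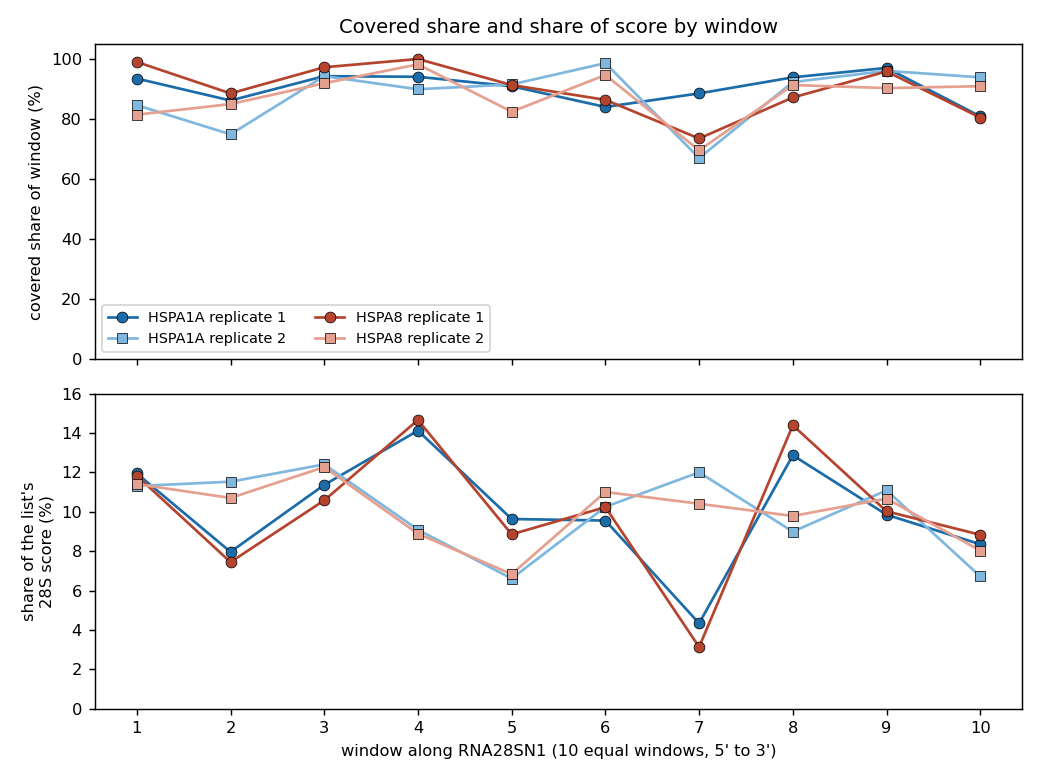
Lines join the values of each list over 10 equal windows of RNA28SN1, as the covered share of the window in percent (top) and as the share of the list's 28S score in percent (bottom). In window 7 the score share is 4.34% and 3.14% in the lists numbered 1 and 12.0% and 10.4% in those numbered 2.

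The 18S rRNA of the small subunit comes from the same precursor and was the most alike RNA to compare. The covered share of RNA28SN1 exceeded that of RNA18SN1 in 4 of 4 lists, by 3.33 and 4.74 percentage points in HSPA1A and by 2.79 and 3.64 in HSPA8. The mean difference was 3.62 ± 0.821 (SD, n = 4; exact two-sided sign flips, p = 0.13, the smallest that 4 lists allow). The size and sign differed between copies. For LOC110467529 against the 18S pseudogene RNA18SP5 the mean was 11.2, with 28S higher in 4 of 4 lists (exact permutation, p = 0.13). For RNA28SN2 against RNA18SN2 the mean was -0.457 (exact permutation, p = 0.75). It was -1.85 for RNA28SN3 against RNA18SN3 (exact permutation, p = 0.13), with 28S lower in 4 of 4 lists. By inner stretches RNA28SN1 gave -2.30 (exact permutation, p = 0.375). A difference in coverage between 28S and 18S therefore depended on the copy.

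By score, 28S stood below 18S at its highest point in every list. The best peak of RNA28SN1 against that of RNA18SN1 scored 3557 against 4622 and 581 against 1486 in the HSPA1A lists. In the HSPA8 lists it scored 5195 against 5656 and 444 against 977. The median peak score did not keep this order. It was lower on 28S in the lists numbered 1, at 1282.5 against 1587.5 for HSPA1A and 2009 against 3440 for HSPA8. In the lists numbered 2 it was higher on 28S, at 123 against 95 and 99 against 75. Peak density per kb was 7.11 against 6.42 and 11.6 against 10.2 in HSPA1A, and 5.72 against 5.35 and 10.5 against 11.2 in HSPA8. It was higher on 28S in 3 of the 4 lists.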

How the data were processed

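Peak lists of 4 FLASH-seq libraries (HSPA1A and HSPA8, 2 replicates each) were used, 1 list per replicate. Per the labels' protocols, random adapter tags served to merge PCR duplicates. Per the submitters' processing notes, Trim Galore 0.4.4, FastQC, STAR 2.6.0b, deepTools and GRCh38 were used; the peak caller, its threshold and the handling of multi-mapping reads are not given in the sources used here. The score per peak is the authors' deposited value, of unstated meaning; the deposited positions, of no other unit, give each peak and an inner stretch of it. The lists hold 2744, 2059, 3131 and 2040 peaks; depth is unknown.

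Gene positions came from the RefSeq gene table for GRCh38.p14. A peak lay on a copy with at least 1 bp of overlap on the plus strand, which holds all peaks on these copies (the gene table gives no strand). Baits were compared by exact permutation over the 6 label orders, and 28S with 18S by exact sign flips. Named peaks were the 3 highest-scoring per list and the 5 longest stretches per pattern. Alternatives were other copies, either strand, stricter scores, equal numbers of peaks, midpoints, reciprocal overlap, merging, other windows, each list left out and the replicate block; inner stretches, abutting peaks and a lone copy were added after seeing the data. The members and lists were chosen with earlier results of these data known. Computations ran in Python 3.11.15 with scipy 1.17.1, pandas 2.3.3 and numpy 2.4.6, plots in matplotlib 3.10.9, and procedures were tested on simulated lists.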

Additional observations from a re-analysis of the deposited data

Results flagged for a closer look

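Peaks on 28S copies outside chromosome 21 are not part of the comparisons above and are given as counts, with no control level to set them against. RNA28SN5 carried 29 peaks in HSPA8 replicate 1 and 50 in HSPA8 replicate 2, on scaffold GL000220.1. RNA28SN4 carried 30 peaks in HSPA8 replicate 1 and 52 in HSPA8 replicate 2, on scaffold KI270733.1. The gene table names no scaffold for these copies, and they were matched by position alone. Their covered shares were 91.5% and 87.0% for RNA28SN5 and 91.0% and 87.7% for RNA28SN4, close to those of RNA28SN1 in the same lists. The HSPA1A lists hold 0 peaks on scaffolds.

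The 5 annotated 28S pseudogenes on chromosomes 2, 19 and 20 held 28 and 11 peaks with HSPA1A and 27 and 6 with HSPA8, replicate 1 first and strand ignored. Their highest scores were 148 and 15 in HSPA1A and 151 and 14 in HSPA8. Covered shares of these pseudogenes were at most 13.8%, reached by LOC110467526 in HSPA8 replicate 1.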

How the results depend on the processing

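Of 104 values under other settings, 75 kept their direction or range, 15 moved and 14 reversed. The 75 include settings that could not change a value, so their number is not read as a measure of stability. Every peak on the copies lies on the plus strand, so taking either strand changed nothing, and the replicate block keeps each mean difference. No comparison passed a threshold under any setting, which the design of 2 lists a bait does not allow. Differences are HSPA1A minus HSPA8. For the number of peaks (6.5) the value was 2.5 with abutting peaks merged and -0.5 with peaks within 50 bp merged, and with a list left out it ran from -5.5 to 18.5. For the covered share (0.553 percentage points) RNA28SN3 gave -1.30 and LOC110467529 -2.38, inner stretches gave 3.13, and a list left out gave -0.632 to 1.74. For the share of the list on 28S (-1.18) equal numbers of top-scoring peaks gave 1.30 and peaks at or above the median score -4.29. A list left out gave -5.68 to 3.33. Scaffolds in the denominator alone gave 0.999, with the scaffold copies of 28S left out of the numerator. Peaks overlapped by the other replicate moved to 75.0%, 45.8%, 79.3% and 43.4% with a reciprocal overlap, which is stricter by construction. They moved to 100% on RNA28SN2 in HSPA1A replicate 1 and on LOC110467529 in both lists numbered 2. The Jaccard difference moved to -0.0579 with inner stretches and was -0.00631 on LOC110467529. The 28S minus 18S difference (3.62) reversed to -0.457 on RNA28SN2, -1.85 on RNA28SN3 and -2.30 with inner stretches, was 11.2 on LOC110467529, and ran from 3.25 to 3.90 with a list left out. Windows without overlap of the baits (3) fell to 1 on RNA28SN2 and on LOC110467529 and stayed at 3 on RNA28SN3. They rose to 5 to 8 with a list left out, where 1 list stands for a bait. With 20 windows the count was 2. The cause of the reversals was not tested.

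The labels tie no day or batch to a replicate number, so the lists share only a number; deviations from the bait mean correlated at 0.415 over 5066 positions and at 0.616 over 10 windows. With the replicate block the differences were 6.5, 0.553 and -1.18 (exact sign-flip permutation, p = 0.5, 0.5 and 1), and 5 windows differed in the same direction within both numbers. Sign flips alone give such agreement at a rate of 0.5, so 5 of 10 windows is that share. Unknown depth limits every count of peaks, and near-complete coverage leaves little room for a difference in covered share.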
